A study of Mus musculus with 38 samples.

Results

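The RNA levels of 10 genes of sterol efflux and lipoprotein assembly were followed in mouse liver across 4 genotypes and up to 3 feeding states. The genes were chosen by name and role: the sterol transporter genes Abcg5, Abcg8, Abca1 and Abcg1, the high-density lipoprotein (HDL) genes Scarb1 and Lcat, the particle assembly genes Mttp and Apob, and the apolipoprotein genes Apoc3 and Apoa4. They are 10 of the 22485 genes measured, each read from its probe of highest mean. Earlier results of these data were known when they were chosen, so counts among them are not independent of these data.

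The liver packs triglyceride and cholesterol into very-low-density lipoprotein (VLDL) around the protein ApoB, with the transfer protein encoded by Mttp loading the lipid. It rids the body of sterol by 2 other routes, in which Abcg5 and Abcg8 form a dimer that exports sterols into bile, and Abca1 and Abcg1 pass cholesterol to HDL, which returns to the liver through the receptor encoded by Scarb1. Insulin is known to restrain VLDL assembly and to keep the transcription factor FoxO1 out of the nucleus, and Abcg5, Abcg8, Mttp and Apoc3 have been described as FoxO1-dependent genes in mouse liver.

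All mice were males of 11 to 12 weeks on a mixed background of FVB/N and C57Bl/6. LIRFKO mice lacked both the insulin receptor and FoxO1 in liver, and LIRKO mice lacked the insulin receptor alone. In both, floxed alleles were deleted by Cre under the albumin promoter, which is active in hepatocytes, so the other cells of the liver keep these genes. Mice with floxed alleles of both genes (IR/FoxO1 floxed) or of the receptor alone (IR floxed) are the labelled controls. The LIRFKO mice were 4 refed, 3 given glucose and 3 fasted, and the LIRKO mice were 4, 3 and 3. The IR/FoxO1 floxed mice were 3 refed and 3 fasted, and the IR floxed mice were 4 refed, 3 given glucose and 4 fasted. Every mouse had been fasted, which the labels give both as overnight and as 24 h. Refed mice were taken 6 h after food was returned, and glucose mice 60 min after glucose. Every mouse given glucose carries a higher number than every other mouse, so that glucose and cohort cannot be told apart, and LIRFKO and LIRKO are separate lines, so that line and FoxO1 deletion cannot be told apart between them. Single libraries are called by their titles, in which IRF.KO is LIRFKO, IR.KO is LIRKO, IRF.fl and IR.fl are the floxed lines, Fast, Refed and GTT (glucose) are the states, and the mouse number comes last.

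Each library is 1 dye channel of an Agilent array, and its values are deposited log2 intensities with column medians from 5.72 to 5.78. A level below is a log2 intensity, a difference of levels is given in log2 units ± its standard error, and a gene is said to rise, fall or change where its p adjusted over all 22485 genes was under 0.05. Groups this small can fail to overlap by chance, so a lack of overlap describes the values and is no test. The share of all genes without overlap is not given here. Values above 15.8 lie within 0.2 of the scanner's ceiling of 16 and count as saturated. All 7 hepatocyte marker genes were bright, with means from 12.7 (Cps1) to 15.8 (Serpina1a). Foxo1 lay between 6.07 and 7.12 in LIRFKO libraries and between 9.14 and 10.91 in LIRKO and floxed libraries, except in that of IRF.fl_Fast_523, labelled fasted IR/FoxO1 floxed. That library held Foxo1 at 6.77 and Insr at 6.90, so calls that change without it are also given without it. Insr lay between 5.96 and 6.81 in LIRFKO libraries, 6.30 and 7.81 in LIRKO libraries, 6.90 and 8.27 in IR/FoxO1 floxed libraries, and 7.77 and 9.05 in IR floxed libraries.

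RefSeq promoter windows of build GRCm38.p6, from 250 bases before to 50 after a gene start, were found for 7 of the 10 genes. Abcg5 and Abcg8 are neighbours read away from each other. Abcg8 has another annotated start, at 84676302, with its own window at chr17:84676052-84676351. The Abcg8 start nearest to that of Abcg5 is used here. These starts of Abcg5 and Abcg8 on chromosome 17 are 110 bases apart, at 84683011 on the minus strand and 84683121 on the plus strand. Their windows share 209 bases. The window of Abcg8 at chr17:84682871-84683170, plus strand, is shown because it holds the stretch common to both genes, with the 109 bases between the 2 starts in capitals.
Abcg8 window: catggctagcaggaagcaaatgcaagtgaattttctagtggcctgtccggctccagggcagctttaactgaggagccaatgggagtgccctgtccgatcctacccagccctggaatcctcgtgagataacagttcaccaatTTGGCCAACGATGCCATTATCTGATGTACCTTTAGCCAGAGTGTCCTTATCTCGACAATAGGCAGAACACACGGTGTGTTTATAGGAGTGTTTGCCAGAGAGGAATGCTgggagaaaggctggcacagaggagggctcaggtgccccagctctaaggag
The window of Abca1 at chr4:53159846-53160145, minus strand, is shown because it alone among the 8 windows of these genes held any of the motifs searched. Capitals mark CACGTG, an E-box that starts 147 bases before the gene start, and, at 67 bases before it, a match on the opposite strand to a relaxed form of the DR4 element, the paired half-sites bound by the sterol receptor LXR. The relaxed form was chosen after the windows had been read.
Abca1 window: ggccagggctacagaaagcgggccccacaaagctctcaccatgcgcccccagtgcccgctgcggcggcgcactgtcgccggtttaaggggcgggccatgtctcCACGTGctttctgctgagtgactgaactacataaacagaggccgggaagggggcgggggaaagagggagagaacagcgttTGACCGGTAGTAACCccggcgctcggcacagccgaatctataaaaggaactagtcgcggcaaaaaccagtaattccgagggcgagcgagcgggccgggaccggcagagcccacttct
The search covered both strands for GTAAACA, the core bound by FoxO factors, the core CAAAACA of insulin response elements, the E-box CACGTG and the AP-1 site TGACTCA. It also covered the LXR element DR4 in strict and relaxed form and a sterol response element. Of 32851 windows of all genes, 3.65% held GTAAACA, 6.28% held CAAAACA, 7.15% held CACGTG, 5.20% held TGACTCA, 0.0152% held the strict and 0.0487% the relaxed DR4, and 0.0913% held the sterol response element. A match describes these letters and is not evidence that a factor binds there.

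**Figure D1:**
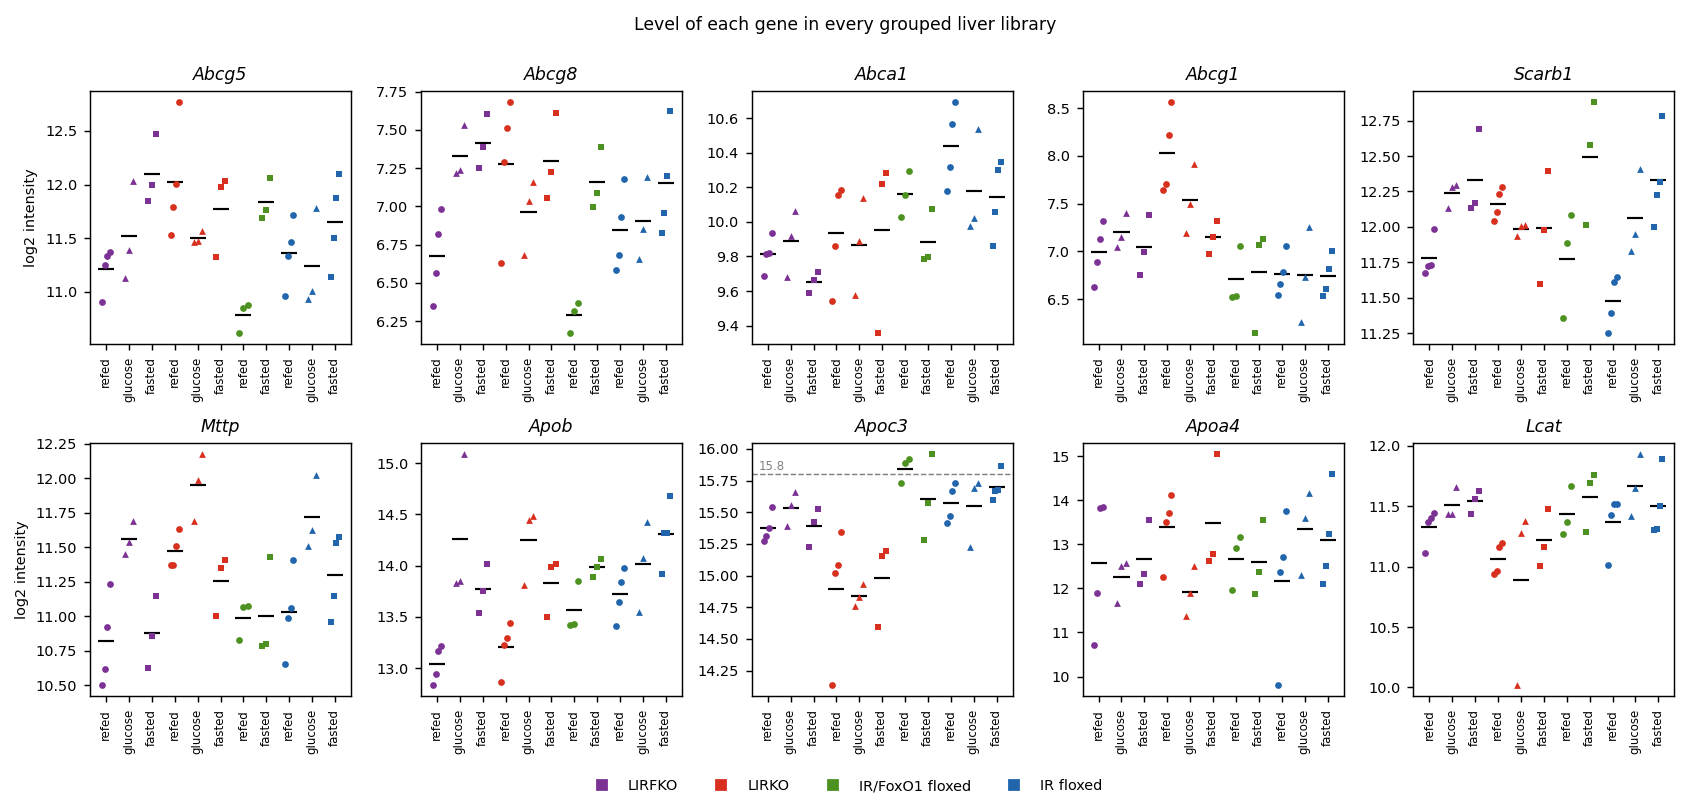
Log2 intensity of each gene in all 37 grouped libraries. Points are single mice (circles refed, triangles glucose, squares fasted), coloured by genotype, and bars are group means. The dashed line at 15.8 in the panel of Apoc3 marks the level above which values count as saturated. Abcg1 stands highest in refed LIRKO livers, Abcg5 and Abcg8 stand lowest in refed IR/FoxO1 floxed livers, and Apoa4 is spread widely within most groups.

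The 10 genes lay between the 60.6 percentile (Abcg8) and the 99.8 percentile (Apoc3) of gene means. Within groups, their levels varied with a pooled SD between 0.25 (Abca1) and 0.36 (Abcg5), apart from Apoa4 at 1.10, where the median of the 11242 genes above the median level was 0.23. Between the highest and the lowest group mean, the range was smallest for Lcat at 0.77 and widest for Apoa4 at 1.56. Among the other genes it was widest for Abcg1 at 1.33 and Abcg5 at 1.32.

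Between LIRKO and IR floxed mice, which differ in the insulin receptor, 4 of 10 genes changed in refed liver. Abcg1 and Scarb1 rose, and Apoc3 and Abca1 fell. Of all genes 11.6% changed in that comparison, and of genes above the median level, to which all 10 belong, 20% did. In fasted liver 1 of 10 changed, Apoc3, which fell. There 8.06% of all genes and 14.5% of those above the median level changed, and 3.92% of all genes fell. After glucose 2 of 10 changed, Apoc3 and Lcat, and both fell. There 8.30% of all genes and 15.2% of those above the median level changed, and 3.91% of all genes fell.

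LIRFKO and LIRKO mice, which both lack the receptor, differed in 4 of 10 genes in refed liver. Abcg1, Abcg5, Abcg8 and Mttp were all lower in LIRFKO. There 8.09% of all genes and 13.9% of those above the median level differed, and 4.43% of all genes were lower in LIRFKO. After glucose 1 of 10 differed, Apoc3, which was higher in LIRFKO. There 7.57% of all genes and 13.7% of those above the median level differed, and 3.85% of all genes were higher. In fasted liver limma called 0 of 10, against 6.52% of all genes, and 1 of 10 had an unadjusted p under 0.05, against 19.1% of all genes. Against their own IR/FoxO1 floxed controls, fasted LIRFKO mice differed in 0 of 10 genes by limma (0.00445% of all genes called), and 0 had an unadjusted p under 0.05 (3.64% of all genes). That fasted control group includes IRF.fl_Fast_523, whose Foxo1 level was as low as in LIRFKO libraries, and without that library 9 of all genes were called. When refed, LIRFKO mice also differed from these controls in 0 of 10 (0.378% called), and 3 had an unadjusted p under 0.05 (10.4% of all genes).

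Refeeding lowered Scarb1 in IR floxed mice, 1 of 10, where 3.61% of all genes and 6.80% of those above the median level changed and 1.49% of all genes fell. It lowered Abcg5 in IR/FoxO1 floxed mice, also 1 of 10, where the shares were 3.54%, 6.61% and 1.52%. In LIRFKO mice limma called 0 of 10 on refeeding (1.81% of all genes called), with 4 at an unadjusted p under 0.05 (13.6% of all genes). In LIRKO mice it called 0 of 10 (1.85%), with 2 at an unadjusted p under 0.05 (12.2%). For glucose against fasting it called 0 of 10 in each genotype, and 1 in each had an unadjusted p under 0.05. The shares of all genes called were 0.654% in LIRFKO, 0.596% in LIRKO and 0.160% in IR floxed mice, and the unadjusted shares were 12.3%, 11.3% and 8.50%. The IR/FoxO1 floxed and IR floxed lines differed by limma in 0 of 10 genes fasted (0.0356% called, and 0 genes unadjusted against 7.48% of all) and in 0 of 10 refed (0.0845% called, and 3 genes unadjusted against 6.11% of all).

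The 7 differences between responses or between knockout effects called 0 of 10 genes each in limma. For the refeeding response of LIRFKO against LIRKO mice, 4 genes had an unadjusted p under 0.05 (5.88% of all genes, with 0.0222% called). For LIRFKO against IR/FoxO1 floxed mice 0 did (4.06%, with 0.00445% called), and for LIRKO against IR floxed mice 2 did (7.93%, with 0.165% called). For the glucose response 0 did between LIRFKO and LIRKO mice (8.93%, with 0.0578% called) and 0 between LIRKO and IR floxed mice (6.86%, with 0% called). For the knockout effect of the LIRFKO line against that of the LIRKO line, 0 did when fasted (12.0%, with 0.934% called) and 3 when refed (12.2%, with 1.32% called). An effect called in 1 genotype or state and not in another is therefore not shown to differ between them.

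**Figure D2:**
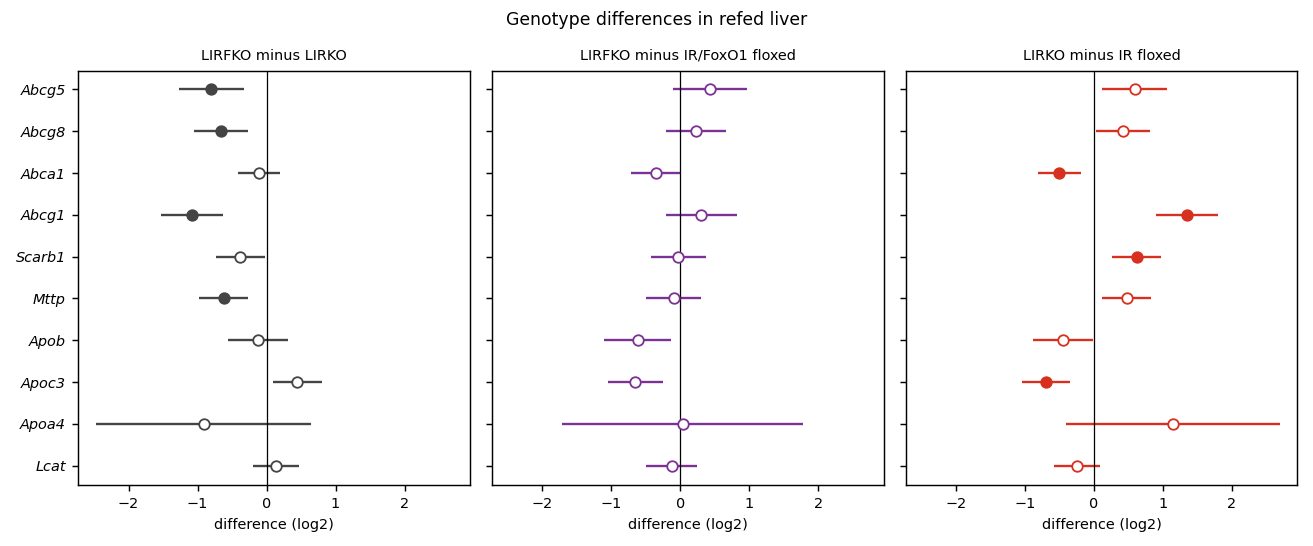
Differences between genotypes in refed liver, in log2 units, for LIRFKO minus LIRKO, LIRFKO minus IR/FoxO1 floxed and LIRKO minus IR floxed. Points are limma estimates with 95% intervals, and filled points have an adjusted p under 0.05 over all genes. Abcg1 stands at -1.08 in the LIRFKO minus LIRKO panel and at 1.35 in the LIRKO minus IR floxed panel.

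Abcg5 and Abcg8, whose products pair to export sterols into bile, were lowest together in refed IR/FoxO1 floxed liver. Abcg5 read 10.62, 10.85 and 10.87 in refed IR/FoxO1 floxed mice, against 11.76, 11.69 and 12.06 in fasted ones. No refed mouse reached a fasted one. Abcg5 fell by 1.04 ± 0.26, to 0.487 times the fasted level (adjusted p = 0.0244). The call was lost without IRF.fl_Fast_523 (adjusted p = 0.0654), IRF.fl_Fast_533 (0.121), IRF.fl_Refed_467 (0.146) or IRF.fl_Refed_473 (0.0796), and with slide as a fixed term (0.0672), and within the 1 slide that held both groups the difference was -0.85. Abcg8 read 6.18, 6.32 and 6.37 in refed IR/FoxO1 floxed mice, against 7.0, 7.08 and 7.39 in fasted ones, again with no overlap. Its difference of -0.73 ± 0.22 did not pass (adjusted p = 0.0657), but it did without the array block (0.0465), after a filter on level (0.0331) and with array quality weights (0.0276).

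In LIRFKO mice both transporter genes were again lower after refeeding in every mouse, and neither passed in the model used throughout. Abcg8 read 6.35, 6.82, 6.57 and 6.99 in refed LIRFKO mice, against 7.39, 7.25 and 7.60 in fasted ones, a difference of -0.76 ± 0.20 (adjusted p = 0.0506). Abcg8 lay at the threshold and passed in 5 other fits, namely a trended robust prior (adjusted p = 0.0427), a filter on level (0.0332), array quality weights (0.0106), the mean of all probes (0.0490) and the 2 groups alone (0.0451). With the mean of all probes the values of Abcg8, which has a single probe, were unchanged and only those of other genes moved. Abcg5 differed by -0.75 ± 0.25 (adjusted p = 0.125). In LIRKO mice the same comparison gave 0.25 for Abcg5 (95% interval -0.29 to 0.79) and 0.02 for Abcg8 (-0.42 to 0.47), and in IR floxed mice -0.26 (-0.73 to 0.22) and -0.22 (-0.62 to 0.17). Between LIRFKO and LIRKO the refeeding responses differed by -1.0 ± 0.34 for Abcg5 (adjusted p = 0.605) and -0.79 ± 0.28 for Abcg8 (adjusted p = 0.626), so the difference in response did not pass.

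The refed levels themselves separated LIRFKO from LIRKO. Abcg5 read 11.37, 11.33, 10.90 and 11.25 in refed LIRFKO mice, against 11.79, 12.77, 11.53 and 12.00 in refed LIRKO mice. The groups did not overlap, and Abcg5 was lower in LIRFKO, with a difference of -0.80 ± 0.23, or 0.574-fold (adjusted p = 0.0288). The call was lost without IRF.KO_Refed_468 (adjusted p = 0.0751) or IRF.KO_Refed_478 (0.114) or IR.KO_Refed_558 (0.138) or IR.KO_Refed_565 (0.0839), and within 3 slides the difference ran from -1.87 to -0.54. Abcg8 in the same mice read 6.35, 6.82, 6.57 and 6.99 in LIRFKO, against 7.29, 7.68, 6.63 and 7.51 in LIRKO, where IR.KO_Refed_564 lay inside the LIRFKO range. It was lower in LIRFKO all the same, with a difference of -0.67 ± 0.19 (adjusted p = 0.0285). That call was lost without IRF.KO_Refed_468 (0.218) or IRF.KO_Refed_478 (0.0748) or IR.KO_Refed_553 (0.0695), IR.KO_Refed_558 (0.114) or IR.KO_Refed_565 (0.174).

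The same library, IR.KO_Refed_564, bears on the comparison with IR floxed mice, whose refed Abcg5 levels were 11.46, 11.33, 10.96 and 11.71 and refed Abcg8 levels 7.18, 6.93, 6.68 and 6.58. LIRKO exceeded IR floxed by 0.60 ± 0.23 for Abcg5 (adjusted p = 0.0973) and 0.42 ± 0.19 for Abcg8 (adjusted p = 0.177). Without IR.KO_Refed_564 both passed, at 0.75 for Abcg5 (adjusted p = 0.0451) and 0.66 for Abcg8 (adjusted p = 0.0129), and Abcg5 passed with array quality weights (0.66, adjusted p = 0.0243). Across the 11 group means the pair had a Pearson r of 0.91, and across the 37 libraries 0.74. Among the 45 pairs of these genes no other pair had a higher r over group means. These points share arrays and controls, and the values are descriptions. Outside the list, the genes most like Abcg5 over the 11 group means were Mertk (r = 0.93) and Amdhd2 (0.91), and those most like Abcg8 were Mgat4b (0.91) and Capns1 (0.90).

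**Figure D3:**
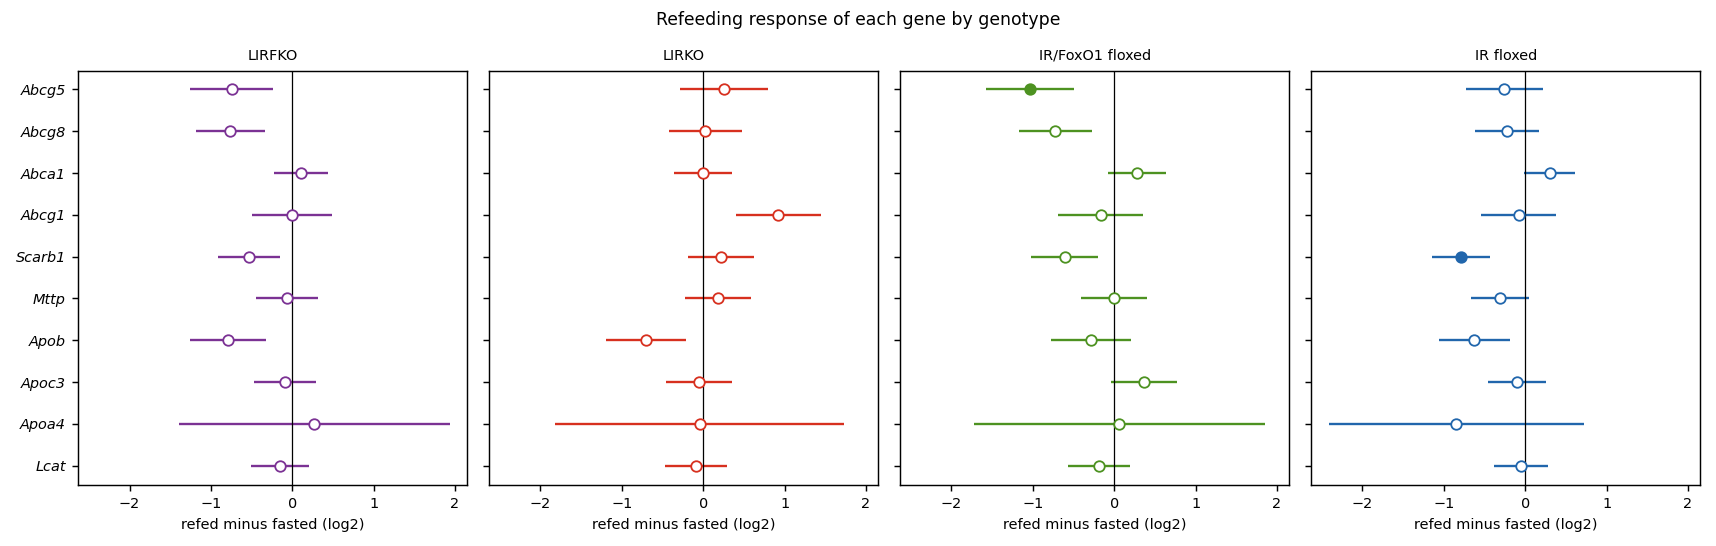
Refed minus fasted difference of each gene in log2 units, with a panel per genotype. Points are limma estimates with 95% intervals, and filled points have an adjusted p under 0.05 over all genes. Scarb1 in IR floxed mice (-0.79) and Abcg5 in IR/FoxO1 floxed mice (-1.04) are the filled points.

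Abcg1, which passes cholesterol to HDL particles and is strongly expressed in macrophages, was highest in refed LIRKO liver. It read 8.22, 8.56, 7.65 and 7.70 in refed LIRKO mice, against 6.66, 6.79, 6.55 and 7.06 in refed IR floxed mice. Every LIRKO mouse lay above every IR floxed mouse. Abcg1 rose by 1.35 ± 0.22, or 2.55-fold (95% interval 1.86 to 3.49, adjusted p = 1.04e-04). It read 6.89, 7.32, 6.63 and 7.13 in refed LIRFKO mice, all below the refed LIRKO mice, and was lower in LIRFKO, with a difference of -1.08 ± 0.22, or 0.473-fold (adjusted p = 0.00217). Both calls held with each mouse left out in turn, with adjusted p up to 0.00242 for LIRKO against IR floxed and up to 0.0141 for LIRFKO against LIRKO. Both also held in each of 10 other fits. Within 3 slides the differences ran from 0.59 to 1.61 and from -1.93 to -0.60.

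In the other states the difference in Abcg1 did not pass. After glucose it read 7.49, 7.19 and 7.91 in LIRKO mice, against 6.26, 6.73 and 7.25 in IR floxed mice (difference 0.61 ± 0.26, adjusted p = 0.159). Without IR.fl_GTT_699 the glucose difference was 0.93 and passed (adjusted p = 0.0473), as it did with array quality weights (0.76, adjusted p = 0.0361). In the fasted state the difference was 0.35 ± 0.24 (adjusted p = 0.469). Refed LIRKO mice lay above fasted ones, which read 6.97, 7.15 and 7.32, with no overlap, but the difference of 0.92 ± 0.25 did not pass (adjusted p = 0.0577). Without IR.KO_Refed_564 it was 1.08 (adjusted p = 0.0394), and without IR.KO_Refed_565 it was 1.07 (adjusted p = 0.0459). It also passed with a trended robust prior (adjusted p = 0.0468) and after a filter on level (0.0325). The knockout effect on refed Abcg1 differed between the lines by -1.04 ± 0.33 without passing (adjusted p = 0.119).

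Macrophage and Kupffer cell markers moved with Abcg1 between these groups. Of 13 such genes, 12 were higher in refed LIRKO than in refed IR floxed liver and 0 were lower (median difference 1.28, against a median of -0.00345 over all genes, of which 11.6% changed), among them Clec4f at 1.38 ± 0.24, Cd5l at 1.88 ± 0.27 and C1qa at 1.33 ± 0.21. In refed liver 8 of the 13 were lower in LIRFKO than in LIRKO mice and 0 were higher (median -0.74, where 4.43% of all genes were lower). The log2 of their summed intensity ran from 12.98 to 13.51 in refed LIRFKO livers, from 13.95 to 14.22 in refed LIRKO livers, from 12.40 to 13.06 in refed IR/FoxO1 floxed livers and from 12.40 to 12.63 in refed IR floxed livers. Abcg1 and that sum had a Pearson r of 0.81 over the 37 libraries and 0.92 over the 11 group means, while the value for Abca1, which macrophages also express, was -0.34 over libraries. In bulk liver, more cells of a type and more RNA per cell cannot be told apart. The part of the macrophage markers in the result for Abcg1 was not tested. The genes most like Abcg1 over the group means were Nckap1l (r = 0.98), a haematopoietic actin regulator, and Mmp11 (0.97).

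**Figure D4:**
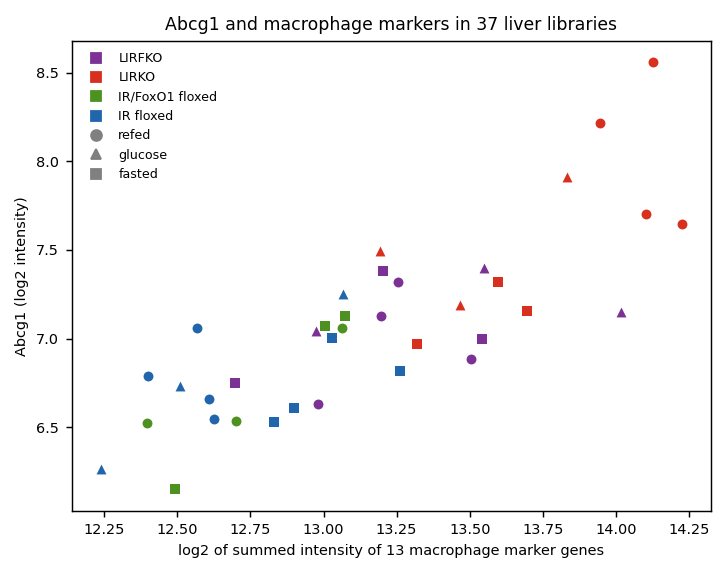
Abcg1 level against the log2 of the summed intensity of 13 macrophage and Kupffer cell marker genes, both log2 scales, with 1 point per library (colour for genotype, shape for feeding state). The 4 refed LIRKO livers lie at 13.95 to 14.22 on the marker axis and at 7.65 to 8.56 for Abcg1. Among these 4, IR.KO_Refed_564 is highest on the marker axis and lowest for Abcg1. The glucose LIRFKO library IRF.KO_GTT_726 lies at 14.02 on the marker axis and at 7.15 for Abcg1.

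Abca1, which loads cholesterol and phospholipid onto lipid-poor ApoA-I, moved the other way in refed LIRKO liver. It read 10.15, 10.18, 9.54 and 9.86 in refed LIRKO mice, against 10.18, 10.32, 10.69 and 10.57 in refed IR floxed mice. The groups met at 10.18. Abca1 fell by 0.50 ± 0.15, or 0.707-fold (adjusted p = 0.0275). The call was lost without IR.fl_Refed_562 (adjusted p = 0.20) or IR.KO_Refed_553 (0.0672), IR.KO_Refed_564 (0.116) or IR.KO_Refed_565 (0.0628), and without the array block (0.0689). Within 3 slides the difference ran from -1.03 to -0.28. In refed LIRFKO mice Abca1 read 9.94, 9.82, 9.69 and 9.81, all below the IR/FoxO1 floxed values of 10.30, 10.03 and 10.15, and the difference of -0.36 ± 0.17 did not pass (adjusted p = 0.467). Its lowest group mean was 9.65 ± 0.06 in fasted LIRFKO mice (SD, n = 3) and its highest 10.44 ± 0.23 in refed IR floxed mice (SD, n = 4). Over the group means Abca1 was most like Ginm1 (r = 0.96) and Rnf187 (0.95).

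Scarb1, the gene of the HDL receptor SR-BI, fell on refeeding in IR floxed mice. It read 11.61, 11.65, 11.25 and 11.39 in refed IR floxed mice, against 12.23, 12.78, 12.31 and 12.00 in fasted ones. The states did not overlap, and Scarb1 fell by 0.79 ± 0.17, to 0.579 times the fasted level (adjusted p = 0.00921). The call held with each of the 8 mice left out (adjusted p up to 0.0447), and within 2 slides the difference was -0.88 and -0.61. In the other genotypes the refeeding difference was -0.54 ± 0.19 in LIRFKO (adjusted p = 0.147), 0.22 ± 0.20 in LIRKO (0.776) and -0.61 ± 0.20 in IR/FoxO1 floxed mice (0.0964). Without IRF.fl_Fast_523 the IR/FoxO1 floxed difference was -0.91 and passed (adjusted p = 0.0228), as it did without IRF.fl_Refed_473 (-0.85, adjusted p = 0.0447) and with array quality weights (-0.65, adjusted p = 0.0235). Array weights also gave a fall after glucose in IR floxed mice (-0.50, adjusted p = 0.0358). In that comparison 1841 of all genes passed with the weights, against 36 without them.

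Refed LIRKO livers held more Scarb1 RNA than refed IR floxed livers. The LIRKO mice read 12.10, 12.04, 12.28 and 12.23, all above the IR floxed values just given. Scarb1 was higher by 0.62 ± 0.17, or 1.54-fold (adjusted p = 0.0158). The call was lost without IR.fl_Refed_562 (adjusted p = 0.120) or IR.KO_Refed_553 (0.0584), and within 3 slides the difference ran from 0.58 to 0.89. The refeeding response of LIRKO mice exceeded that of IR floxed mice by 1.01 ± 0.25 without passing (adjusted p = 0.107), and passed without IR.KO_Fast_545 (1.21, adjusted p = 0.0362) and with array quality weights (1.05, adjusted p = 0.0417). Refed LIRFKO mice read 11.98, 11.68, 11.73 and 11.73, below every refed LIRKO mouse, a difference of -0.38 ± 0.17 (adjusted p = 0.204). That difference passed when fitted on the 2 groups alone (-0.37, adjusted p = 0.0352).

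A dimmer probe of Scarb1 gave wider gaps between the refed genotypes. On it Scarb1 was lower in LIRFKO than in LIRKO, with a difference of -0.99 ± 0.13 (adjusted p = 1.41e-05), and higher in LIRKO mice than in IR floxed ones by 0.90 ± 0.13 (adjusted p = 2.96e-05). The knockout effect then differed between the lines by -1.08 ± 0.20 (adjusted p = 0.00288), against -0.65 ± 0.25 (adjusted p = 0.251) on the brighter probe. With the mean of all probes, the refed LIRFKO minus LIRKO difference of Scarb1 was -0.69 (adjusted p = 0.00261) and that between the knockout effects was -0.87 (adjusted p = 0.0324). On the dimmer probe alone, the fall on refeeding in IR floxed mice was smaller, at -0.46 ± 0.13 (adjusted p = 0.0547). Both probes are assigned to the same transcript, and which exons they lie in was not analysed here. The genes most like the brighter probe over the group means were Pced1b (r = 0.92) and Rtn4rl1 (0.88).

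**Figure D5:**
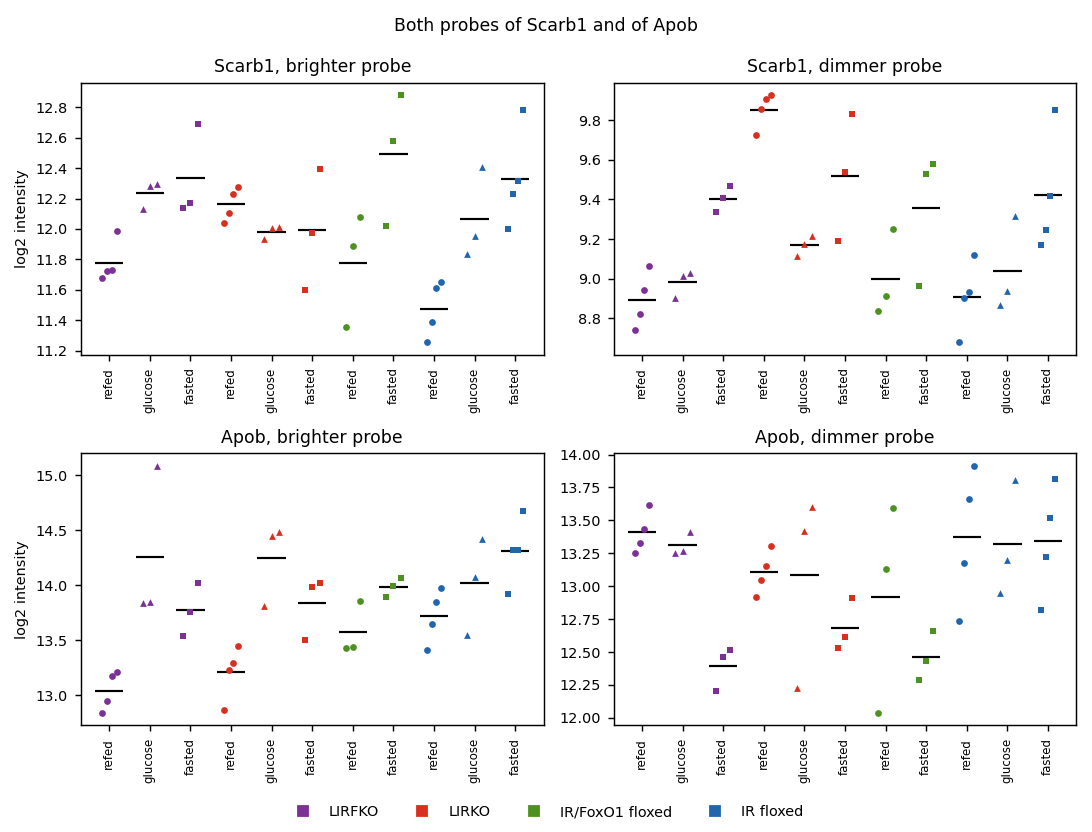
Log2 intensity of both probes of Scarb1 (top) and of Apob (bottom) in all 37 libraries, with group means as bars. For Scarb1 both probes have their highest refed mean in LIRKO, while for Apob the refed LIRFKO mean lies below the fasted one on the brighter probe and above it on the dimmer one.

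Lcat encodes the plasma enzyme that esterifies cholesterol on HDL. After glucose it read 11.28, 10.02 and 11.38 in LIRKO mice, against 11.65, 11.41 and 11.93 in IR floxed mice. Lcat fell by 0.67 ± 0.19 in LIRKO, or 0.627-fold (adjusted p = 0.0218). The lowest value is that of IR.KO_GTT_690. That library also held the highest Insr level of the LIRKO libraries, 7.805, inside the IR floxed range of 7.77 to 9.05. It is also in the glucose LIRKO values of the other genes, at 7.19 for Abcg1, 12.17 for Mttp and 14.83 for Apoc3. Without IR.KO_GTT_690 the Lcat difference was -0.35 (adjusted p = 0.183), and with array quality weights the call did not pass (0.0611). It was also lost without IR.fl_GTT_691 (0.0630) or IR.fl_GTT_699 (0.0816). After glucose the LIRFKO mice, at 11.43, 11.66 and 11.44, all lay above the LIRKO mice, by 0.52 ± 0.19 (adjusted p = 0.0899), and this passed without IR.KO_GTT_697 (0.76, adjusted p = 0.0445) or IR.KO_GTT_667 (0.70, adjusted p = 0.0215). Over the group means Lcat was most like Mobp (r = 0.97) and Perp (0.95).

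Mttp, which encodes the large subunit of the microsomal triglyceride transfer protein, was lower in refed LIRFKO than in refed LIRKO liver. It read 10.92, 10.50, 11.23 and 10.61 in refed LIRFKO mice, against 11.37, 11.37, 11.63 and 11.51 in refed LIRKO mice. The groups did not overlap. The difference was -0.62 ± 0.17, or 0.649-fold (adjusted p = 0.0227), and it held in each of 10 other fits. It was lost without IRF.KO_Refed_468 (adjusted p = 0.0647), IRF.KO_Refed_469 (0.0929) or IRF.KO_Refed_524 (0.0680) or IR.KO_Refed_564 (0.0787) or IR.KO_Refed_565 (0.0881), and within 3 slides it ran from -0.80 to -0.13. Refed LIRKO exceeded refed IR floxed mice, at 10.99, 10.65, 11.06 and 11.41, by 0.48 ± 0.17 without passing (adjusted p = 0.0722), and passed without IR.fl_Refed_566 (0.60, adjusted p = 0.0231) and with array quality weights (0.48, adjusted p = 0.0260).

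Within each genotype that was given glucose, Mttp had its highest mean after glucose. It read 11.45, 11.54 and 11.69 in glucose LIRFKO mice, against 11.15, 10.85 and 10.62 in fasted ones, a difference of 0.77 ± 0.19 (adjusted p = 0.0585). In LIRKO mice it read 11.99, 12.17 and 11.69 after glucose, against 11.00, 11.35 and 11.40 when fasted, a difference of 0.76 ± 0.21 (adjusted p = 0.0911). In neither genotype did the states overlap, and in IR floxed mice, where they did, the difference was 0.48 ± 0.20 (adjusted p = 0.481). None of the 3 passed over all genes with equal weights and all mice. Without IR.KO_GTT_697 the LIRKO difference passed (0.93, adjusted p = 0.0305). With array quality weights the difference passed in LIRFKO mice (0.87, adjusted p = 0.00829) and in IR floxed mice (0.74, adjusted p = 0.00415). Those weights raised the count of all genes passing from 147 to 594 in LIRFKO and from 36 to 1841 in IR floxed mice. In LIRKO mice they lowered it from 134 to 9. The cohort difference named above applies to each. Mttp was most like, over the group means, Fbxo6 and Slc39a6 (r = 0.93 each).

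Apob, the scaffold of VLDL, had no change that passed in the model used throughout, and its 2 probes disagreed on refeeding. On the brighter probe refed mice lay below fasted ones without overlap in LIRFKO, LIRKO and IR/FoxO1 floxed mice. In LIRFKO mice it read 12.84, 13.21, 12.94 and 13.17 refed, against 13.54, 14.02 and 13.75 fasted (difference -0.79 ± 0.23, adjusted p = 0.0679). The brighter probe passed there after a filter on level (-0.79, adjusted p = 0.0439) and with array quality weights (-0.77, adjusted p = 0.00981). The dimmer probe gave 1.01 ± 0.30 in the same mice (adjusted p = 0.0808), the opposite sign. In LIRKO mice the brighter probe gave -0.70 ± 0.24 (adjusted p = 0.159) and the dimmer one 0.44 ± 0.32 (adjusted p = 0.684). In IR/FoxO1 floxed mice they gave -0.29 ± 0.24 and 0.47 ± 0.32 (adjusted p = 0.718 and 0.603), and in IR floxed mice -0.62 ± 0.21 and 0.05 ± 0.28 (adjusted p = 0.110 and 0.980). Without IR.fl_Fast_486 the brighter probe gave -0.80 there and passed (adjusted p = 0.0394). Because the probes disagree, no direction is given for Apob on refeeding. After glucose the brighter probe read 15.09, 13.85 and 13.83 in LIRFKO mice, where the first value, of IRF.KO_GTT_725, was the highest of all libraries. The genes most like the brighter probe over the group means were Lcorl and Septin10 (r = 0.97 each).

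Apoc3 encodes an apolipoprotein that slows lipolysis and clearance of triglyceride-rich particles, and it was lower in LIRKO than in IR floxed liver in all 3 states. Fasted, it read 15.19, 15.16 and 14.59 in LIRKO mice, against 15.87, 15.67, 15.67 and 15.60 in IR floxed mice. Refed, it read 15.02, 15.34, 14.14 and 15.08 in LIRKO mice, against 15.67, 15.42, 15.73 and 15.47 in IR floxed mice. After glucose it read 14.76, 14.83 and 14.94 in LIRKO mice, against 15.23, 15.69 and 15.73 in IR floxed mice. In each state the genotypes did not overlap. Apoc3 fell by 0.74 ± 0.19 fasted, by 0.69 ± 0.17 refed and by 0.81 ± 0.20 after glucose, which is 0.599-fold, 0.620-fold and 0.571-fold (adjusted p = 0.0133, 0.00721 and 0.0102). The library IR.fl_Fast_486 lay above 15.8, so its level is a lower bound there.

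Single mice bear on these Apoc3 calls. The fasted call was lost without IR.KO_Fast_550 (-0.56, adjusted p = 0.124) or IR.fl_Fast_486 (-0.68, adjusted p = 0.0704). The refed call was lost without IR.fl_Refed_562 (adjusted p = 0.0516), and without IR.KO_Refed_564, the lowest, the difference was -0.45. The glucose call was lost without IR.fl_GTT_691 (0.0668) or IR.fl_GTT_699 (0.0669). Within slides the difference ran from -1.08 to -0.67 fasted, -1.33 to -0.34 refed and -0.97 to -0.40 after glucose. Of 7 hepatocyte markers, 1 also fell in LIRKO when fasted (Ttr), 1 when refed (Ttr) and 3 after glucose (Ttr, Ass1 and Cps1). Of all genes 8.06% changed when fasted, 11.6% when refed and 8.30% after glucose. Of genes above the median level the shares were 14.5%, 20% and 15.2%. These markers are compressed at the ceiling, since Alb lay above 15.8 in 32, Serpina1a in 31 and Cyp2e1 in 28 of the 37 libraries, and Ttr and Ass1 in 4 each. Their counts and sums may thus understate differences, and Tat and Cps1 alone stayed below 15.8 in every library. The log2 of their summed intensity ran from 17.87 to 18.16 in LIRKO mice and 18.16 to 18.38 in IR floxed mice when fasted, from 17.12 to 18.07 and 18.05 to 18.30 when refed, and from 17.42 to 18.01 and 18.12 to 18.36 after glucose. The part of these markers in the results for Apoc3, and for Lcat after glucose, was not tested.

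In LIRFKO mice Apoc3 was higher than in LIRKO mice after glucose. It read 15.56, 15.39 and 15.66 in LIRFKO mice, above all the LIRKO values just given, a rise of 0.74 ± 0.20, or 1.67-fold (adjusted p = 0.020). The call was lost without IRF.KO_GTT_725 (adjusted p = 0.123) or IRF.KO_GTT_727 (0.0702) or IR.KO_GTT_690 (0.0673). Fasted and refed, LIRFKO exceeded LIRKO by 0.48 ± 0.20 (adjusted p = 0.174) and 0.45 ± 0.17 (adjusted p = 0.119), and the refed difference passed without IR.KO_Refed_558 (0.58, adjusted p = 0.0463). Against their own controls, refed LIRFKO mice read 15.31, 15.27, 15.37 and 15.54 and refed IR/FoxO1 floxed mice 15.73, 15.92 and 15.89, with no overlap. That difference of -0.65 ± 0.19 did not pass (adjusted p = 0.141), and IRF.fl_Refed_472 and IRF.fl_Refed_473 of the floxed group lay above 15.8. The knockout effects of the lines differed by 0.54 ± 0.27 fasted (adjusted p = 0.427) and 0.04 ± 0.25 refed (adjusted p = 0.978). Apoc3 had a negative r with Abcg1 over the group means (-0.85) and a positive one with Lcat (0.83). Outside the list the genes most like it were Myct1 (r = 0.97) and BC051226 (0.96).

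Apoa4, which is induced by fasting and lipid load in liver and sits next to Apoc3 in the genome, could not be resolved with these group sizes. Its pooled SD within groups of 1.10 was above that of 99.6% of the 11242 genes above the median level. It read 11.90, 10.72, 13.84 and 13.83 in refed LIRFKO mice, 13.51, 14.12, 12.25 and 13.72 in refed LIRKO mice, 11.95, 12.91 and 13.16 in refed IR/FoxO1 floxed mice and 12.70, 9.82, 12.37 and 13.76 in refed IR floxed mice. These 4 groups overlap. The fasted LIRKO library IR.KO_Fast_550 reached 15.05, the highest of all libraries, and its 2 group mates read 12.62 and 12.79. The widest differences between groups in 1 state or 1 genotype, -1.84 ± 0.87 between LIRKO and IR floxed mice after glucose (adjusted p = 0.230) and -1.64 ± 0.93 for glucose against fasting in LIRKO (adjusted p = 0.555), did not pass. The gut also expresses Apoa4, and the gut genes Lct, Sis and Cdh17 had means from 5.46 to 5.49, below the medians of the columns, while Vil1 averaged 6.08 and Fabp2 13.3. The part of gut tissue in the spread was not tested. The genes most like Apoa4 over the group means were Mrps23 (r = 0.88) and COX3 (0.87).

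The companion genes of the pathway changed in both directions in LIRKO liver. Their lists were chosen with earlier results of these data known. The shares to read their counts against are those given above, which in refed LIRKO against IR floxed liver were 11.6% of all genes and 20% of those above the median level. Most listed genes lie above that level. Of 20 other genes of VLDL assembly and secretion, 1 rose and 6 fell in refed LIRKO against IR floxed liver (median -0.10, against -0.00345 for all genes), and 19 of the 20 lie above the median level. The lipase gene Ces3a read 12.65 to 13.31 in LIRKO mice, against 14.94 to 15.90 in IR floxed mice, and its difference of -2.66 ± 0.27 (adjusted p = 1.45e-07) has 3 of the 4 IR floxed values above 15.8, so the true gap may be wider. The lipase gene Ces1d fell by 1.74 ± 0.28, and Cidec, a lipid droplet gene, was higher by 3.09 ± 0.51. After glucose 7 of the 20 were higher and 0 lower in LIRFKO than in LIRKO liver (median 0.28, against 0.00115 for all genes), where 3.85% of all genes were higher and 13.7% of those above the median level differed.

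Of 13 measured genes of LXR and sterol sensing, 2 rose and 3 fell in refed LIRKO against IR floxed liver (median 0.22), where 11.6% of all genes and 20% of those above the median level, to which all 13 belong, changed. Npc1, which moves cholesterol out of lysosomes, read 9.48 to 10.13 in LIRKO mice, against 8.32 to 8.66 in IR floxed mice, and rose by 1.27 ± 0.15 (adjusted p = 1.25e-06). Npc1 was also lower in refed LIRFKO than in refed LIRKO mice (difference -1.31 ± 0.15, adjusted p = 1.35e-06), and the knockout effect differed between the lines by -1.73 ± 0.22 (adjusted p = 3.75e-05). Nr1h4, the gene of the bile acid receptor FXR, fell by 0.98 ± 0.13. In fasted liver Cyp7a1, the rate-limiting enzyme of bile acid synthesis, read 6.45, 7.03 and 7.45 in LIRKO mice, against 10.68 to 12.79 in IR floxed mice, and fell by 4.94 ± 0.57 (adjusted p = 2.23e-06). Refed LIRFKO livers had 4 of the 13 higher and 1 lower than LIRKO livers (median -0.23), where 8.09% of all genes and 13.9% of those above the median level differed.

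Of 13 other apolipoprotein genes, all above the median level, 2 rose and 2 fell in refed LIRKO against IR floxed liver (median -0.04), against 11.6% of all genes and 20% of those above that level. Apoc2, the activator of lipoprotein lipase, lay above 15.8 in all 4 refed LIRKO mice, against 13.43 to 14.77 in IR floxed mice (limma adjusted p = 7.36e-05). The group means differed 3.21-fold, which saturation may understate. Apon and Apof were higher in LIRFKO than in LIRKO mice after glucose, Apon by 2.84 ± 0.28 and Apof by 1.26 ± 0.15 (adjusted p = 2.85e-07 and 5.01e-06). Of 13 measured genes of lipoprotein uptake and remodelling, 3 rose and 1 fell in refed LIRKO liver (median 0.10), against the same shares, with Lpl, the lipoprotein lipase, higher by 2.46 ± 0.38. Sdc1, a proteoglycan receptor for remnants, was higher in LIRFKO than in LIRKO after glucose by 2.15 ± 0.18, and Pon1, an HDL-bound esterase, was higher in refed LIRFKO by 1.2 ± 0.16.

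Of 12 measured transcription factor genes that act on this pathway, 1 rose and 1 fell in refed LIRKO against IR floxed liver (median -0.11). That count is near the shares of 11.6% of all genes and 20% of those above the median level, to which 10 of the 12 belong, and is no result about the list. Ppargc1a, a coactivator induced by fasting, read 8.34 to 10.34 in LIRKO mice, against 7.31 to 7.52 in IR floxed mice, and rose by 1.68 ± 0.38 (adjusted p = 0.00296). Foxo1, deleted in LIRFKO, was lower there than in LIRKO after glucose, with a difference of -3.53 ± 0.47. Srebf2, which drives cholesterol synthesis, was higher in refed LIRFKO than in refed LIRKO mice by 0.97 ± 0.16 (adjusted p = 2.80e-04). Its levels were low, at 6.76 to 7.49 in LIRFKO and 5.99 to 6.42 in LIRKO mice, where the median of gene means was 6.17. Over the alternatives the difference ran from 0.54 to 0.98.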

How the data were processed

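Liver RNA (200 ng a sample) of 38 mice was hybridised to 20 two-colour Agilent arrays on 5 slides, and 37 samples fall into 11 groups. The deposited values are log2 intensities, 1 column per dye channel, with a highest value of 15.999. R 3.1.0 and limma 3.20.1 are named per the submitters' processing notes, and the background correction and normalization are unstated (not given in the sources used here). Precision is limited by the number of arrays.

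Of 45220 features, 33026 named 1 gene by the platform annotation and 12194 named none. Each of 22485 genes was read from its probe of highest mean (6138 had several). A linear model in limma 3.58.1 (statmod 1.5.0, R 4.3.3) held a mean for each group and a dye term, with the array as a random block (correlation 0.358), and Benjamini-Hochberg adjustment ran over all genes within each of 24 contrasts. The script was tested on simulated data. Mouse numbers are all distinct, so replicates are separate mice. One library with conflicting labels was left out of every comparison.

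The 10 members and all lists were chosen with earlier results of these data known. Named beyond the members are Insr, Foxo1, up to 3 genes of smallest adjusted p per companion list, and for each member the 2 genes of highest r over group means. Alternatives were slide as a fixed block, no array block, no dye term, quantile normalization, another prior, a filter on level, array weights, mean or other probes, the groups of a contrast alone, IRF.fl_Fast_523 left out, and each mouse left out in turn. Levels of group means carry an SD and differences a standard error.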

Additional observations from a re-analysis of the deposited data

Results flagged for a closer look

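One of 40 gene and group combinations with 4 mice had a value far from the other 3. Scarb1 read 11.98 in IRF.KO_Refed_468, a refed LIRFKO liver, where its group mates lay between 11.68 and 11.73, so that its gap to the nearest of them was 0.830 of the group's range, just above Dixon's critical value for groups of 4. Chance alone flags about 5% of such groups. The same mouse bears on the refed LIRFKO calls of Abcg5, Abcg8 and Mttp given above.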

How the results depend on the processing

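No paired analysis was possible because mouse numbers are all distinct between groups and pair no mice. Arrays do pair libraries, since 17 held 2 grouped samples, and the array was a random block in the model and the slide a fixed block in an alternative. The calls of Abcg1 in refed liver (LIRFKO against LIRKO, and LIRKO against IR floxed) passed in all alternatives run. No call changed direction under any of them. On refeeding, where 2 pairs of gene and genotype passed, 1 passed with slide as a fixed block, 4 with a trended robust prior, 6 after a filter on level and 6 with array quality weights. For glucose against fasting, where 0 passed, 3 did with array weights, Mttp in LIRFKO and IR floxed mice and Scarb1 in IR floxed mice. For LIRKO against IR floxed, where 7 passed, 2 did when each contrast was fitted on its own groups. For LIRFKO against LIRKO, where 5 passed, 2 did without the array block. For differences of responses or effects, where 0 passed, 1 did with array weights and 1 with the mean of all probes, both of them Scarb1. Leaving out 1 mouse gave 1 to 3 calls on refeeding, 0 to 1 for glucose, 2 to 6 for LIRFKO against LIRKO, 0 to 0 for LIRFKO against IR/FoxO1 floxed, 4 to 8 for LIRKO against IR floxed, 0 to 0 between floxed lines and 0 to 1 for the differences. A contrast fitted on its own groups has fewer samples, and there the LIRKO against IR floxed p was 0.0727, 0.134 and 0.305 for Apoc3 (fasted, refed, glucose), 0.0732 for Abca1, 0.882 for Lcat and 0.0639 for Ces1d. The refed LIRFKO against LIRKO p was then 0.0861 for Abcg5 and 0.149 for Abcg8, and the refeeding p of Scarb1 in IR floxed mice 0.0939. In refed LIRFKO against LIRKO mice Abcg5 also missed with slide as a block (0.0502), and without the array block the p was 0.0505 for Abcg5, 0.0778 for Abcg8 and, after glucose, 0.0515 for Apoc3. For the other losses the cause was not tested.

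Counts over all genes moved further. For refed against fasted, 407 genes passed in LIRFKO (82 to 1586 over the alternatives), 416 in LIRKO (170 to 492), 796 in IR/FoxO1 floxed (461, without IRF.fl_Fast_523, to 1269) and 811 in IR floxed mice (138 to 1394). For glucose against fasted, 147 passed in LIRFKO (0 to 594), 134 in LIRKO (0 to 187) and 36 in IR floxed mice (0 to 1841). The highest glucose counts in LIRFKO and IR floxed mice came with array quality weights, which gave 9 in LIRKO. These weights also gave the highest refeeding counts in LIRFKO, IR/FoxO1 floxed and IR floxed mice. For LIRFKO against LIRKO, 1466 passed fasted (81 to 1648), 1820 refed (1258 to 3139) and 1703 after glucose (504 to 1819). For LIRFKO against IR/FoxO1 floxed, 1 passed fasted (0 to 11) and 85 refed (5 to 264). For LIRKO against IR floxed, 1813 passed fasted (at most 1971, and fewest on its own groups), 2610 refed (1966 to 4107) and 1866 after glucose (5 to 2701). For the floxed lines, 8 passed fasted (0 to 53) and 19 refed (0 to 53). Among the differences, 297 passed for the refed knockout effect (203 to 851), 210 for the fasted one (88 to 385) and 37 for the refeeding response of LIRKO against IR floxed (5 to 68), and the other 4 had 0 to 17 under every alternative. The percentages of all genes given above move in the same way. Values above 15.8 compress differences of Apoc3, Apoc2, Ces3a and the hepatocyte markers.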

Other observations

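One LIRFKO library, IRF.KO_GTT_724, carries a title for glucose and a treatment label for fasting and was put in no group. It read 11.26 for Abcg5, 7.39 for Abcg8, 9.59 for Abca1 and 12.15 for Scarb1. It read 11.41 for Mttp, which lies between the glucose LIRFKO range of 11.45 to 11.69 and the fasted range of 10.62 to 11.15. It read 13.64 for Apob, 15.48 for Apoc3, 11.57 for Lcat, 7.11 for Abcg1 and 13.24 for Apoa4.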
